A study of Mus musculus with 2 samples.

Results

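B-1 cells are the B lymphocytes that live in the body cavities, and the cells described here were chosen by their transcripts in 2 single-cell RNA sequencing libraries of mouse peritoneal cells. A barcode was kept if it had at least 200 genes and at most 10% mitochondrial UMIs, where a UMI (unique molecular identifier) marks 1 captured RNA molecule. It was taken as a B cell if Cd79a, Cd79b and Ms4a1 together reached 15 UMIs per 10000 and 3 raw UMIs, if the complement genes C1qa, C1qb and C1qc stayed under 15 UMIs per 10000, and if Cd3d, Cd3e and Cd3g gave at most 1 UMI. It was then called B-1 if Mzb1, Zcwpw1 and Ly6a together had more UMIs than Ighd and Fcer2a together, and B-2 if they had fewer. Of 30733 filtered barcodes, 7104 passed as B cells, and 5110 of these were B-1 cells, 1465 were B-2 cells and 529 were ties that were dropped. The values of the rule genes chose the cells, so they are given below as a description.

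Total peritoneal cells were collected 3 days after 1 mg of zymosan. Yeast cell walls of this kind set off peritonitis without living microbes, and the series title places the samples in its resolution phase. The mice were 10 to 14 weeks old. The library called Cd36-/- came from mice that carry floxed CD36 and LysM-Cre, a recombinase expressed from the lysozyme 2 gene in macrophages and other myeloid cells, and the fl/fl library from mice with floxed CD36 whose strain label names no LysM-Cre. Both groups were given zymosan and both carry floxed alleles, so loss of Cd36 and presence of the recombinase cannot be told apart. Each library was made from a pool of 4 replicates, which leaves 1 library per group. No difference between the libraries therefore has a replicate check, no test was run, and intervals are exact 95% intervals of counting error only.

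B-1 cells are mostly produced early in life, renew themselves in the peritoneal and pleural cavities and make much of the natural IgM that circulates without immunisation. Their antigen receptors often recognise self and microbial lipids such as phosphatidylcholine, and inhibitory receptors dampen their signalling. B-2 cells are the conventional recirculating B cells, with surface IgD and the low affinity IgE receptor encoded by Fcer2a. Microbial stimuli can make B-1 cells leave the cavity and become antibody-secreting cells.

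A few variable gene segments carry much of the phosphatidylcholine-binding repertoire of mouse B-1 cells, namely Ighv11-2 paired with Igkv14-126 and Ighv12-3 paired with Igkv4-91. Their germline 3′ ends are shown because these segments are counted below and because this stretch meets the junction that a B cell forms by recombination. The last 90 coding bases of each are printed 5′ to 3′ in the direction of transcription (build GRCm38, GENCODE M21 transcripts), with capitals from the last in-frame cysteine codon, the germline start of the third complementarity-determining region (CDR3).
Ighv11-2: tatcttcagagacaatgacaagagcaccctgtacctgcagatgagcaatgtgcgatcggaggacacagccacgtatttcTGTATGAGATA
Ighv12-3: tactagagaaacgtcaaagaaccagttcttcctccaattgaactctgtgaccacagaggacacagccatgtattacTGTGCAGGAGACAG
Igkv14-126: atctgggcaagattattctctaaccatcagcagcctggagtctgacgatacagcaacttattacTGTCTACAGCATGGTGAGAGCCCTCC
Igkv4-91: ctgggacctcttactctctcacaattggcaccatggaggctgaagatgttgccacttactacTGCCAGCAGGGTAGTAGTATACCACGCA
The stretches lie at chr12:114048241-114048330 on the minus strand for Ighv11-2, chr12:114366521-114366610 on the minus strand for Ighv12-3, chr6:67896553-67896642 on the plus strand for Igkv14-126 and chr6:68768555-68768644 on the minus strand for Igkv4-91. All 4 are in the V exon. The capitals cover 11 and 14 bases in the heavy chain segments and 26 and 28 bases in the light chain segments.

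In Cd36-/- there were 116600732 UMIs on 16543 barcodes, in fl/fl 117238057 UMIs on 15537 barcodes, and 383 barcode sequences occurred in both, 8 of them among B-1 cells. The median depth of B-1 cells was 4961 UMIs in Cd36-/- and 6132 in fl/fl, against 1950.5 and 2450 in B-2 cells. Several shares of cells with a UMI are therefore given after thinning each cell to 2000 UMIs, with cells under that number left out. Scrublet, a doublet caller, marked 40 (1.89%) and 75 (2.50%) of the B-1 cells, and these were kept. In macrophages, here the barcodes past the C1q limit with at most 1 UMI of the 3 B cell genes, Cd36 stood at 176 CPM in Cd36-/- and 254 CPM in fl/fl (log2 ratio -0.53). CPM are a gene's UMIs over all UMIs of the summed cells of a class, scaled to 1e6, and with 1 tag per molecule at the 3′ end they need no scaling by gene length. The labels do not say which exons are floxed, so a 3′ tag may lie outside the deleted part and this value is no full check of the genotype. B-1 cells had Cd36 at 32.7 and 33.1 CPM, a log2 ratio of -0.02 (-0.20 to 0.16). These levels were 0.186 and 0.130 of those in macrophages, and B-2 cells had 31.1 and 29.9 CPM. The part of macrophage RNA in the B-1 value was not tested. After thinning, 5.90% and 6.09% of B-1 cells had a Cd36 UMI, against 28.9% and 38.9% of macrophages.

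The cells carried the B-1 markers that named them. Mzb1, a chaperone of IgM assembly in the endoplasmic reticulum, stood at 906 CPM in Cd36-/- and 776 CPM in fl/fl B-1 cells, against 327 and 347 CPM in B-2 cells. Ly6a, which encodes the surface protein Sca-1, stood at 1258 and 1081 CPM against 217 and 261 CPM. Zcwpw1, a gene best known as a histone mark reader of meiosis, stood at 162 and 198 CPM against 4.8 and 5.8 CPM. On the B-2 side of the rule, Ighd stood at 177 and 194 CPM in B-1 and 1266 and 1254 CPM in B-2 cells, and Fcer2a at 26.9 and 29.4 against 279 and 290 CPM. Of the genes of the B cell gate, Cd79a stood at 2394 and 2349 CPM in B-1 and 2378 and 2440 CPM in B-2 cells, and Ms4a1, which encodes CD20, at 1093 and 1096 against 903 and 829 CPM. Of 12 other B lineage genes, 8 stood lower and 2 higher in B-1 than in B-2 cells in both libraries. Ighm, the IgM heavy chain gene and not used by the rule, gave UMIs in 98.9% of Cd36-/- and 99.1% of fl/fl B-1 cells, at 3868 and 3792 CPM, against 2312 and 2416 CPM in B-2 cells. The last 400 bases of Mzb1 share 95.5% of their 31-base words with another annotated gene, so its counts are uncertain.

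The 3 genes called unequal numbers of cells. Mzb1 had a UMI in 94.1% of Cd36-/- and 94.5% of fl/fl B-1 cells (79.2% and 76.4% after thinning) and Ly6a in 94.3% and 93.9% (87.1% and 81.9% after thinning), whereas Zcwpw1 had one in 23.3% and 26.1%. Ly6a, the gene among the 3 that interferon induces, was the only one of them with a UMI in 107 (5.07%) and 131 (4.37%) cells. More calls depended on it, since without Ly6a in the call 1722 and 2369 cells were B-1, against 2111 and 2999 with it.

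The call has a margin, the difference between the 2 sums of UMIs, and the label holds less firmly for cells near its threshold. The margin was at least 6 UMIs in 1437 Cd36-/- cells (50.4% of gated B cells) and 1992 fl/fl cells (46.8%), and exactly 1 UMI in 175 and 274 cells, while 205 and 292 cells lay 1 UMI on the B-2 side. Just inside the threshold Mzb1 stood at 511 and 556 CPM and Ighd at 582 and 577 CPM. Just outside it Mzb1 stood at 367 and 389 CPM and Ighd at 882 and 877 CPM. The cells just inside also carried Ccr7, the receptor that guides lymphocytes to lymph nodes, at 356 and 320 CPM, close to the 396 and 374 CPM just outside and far from the 59.6 and 63.4 CPM at a margin of 6 or more. S100a6, a calcium-binding protein gene that is high in peritoneal B-1 cells, stood at 838 and 856 CPM just inside, at 389 and 575 CPM just outside and at 4044 and 5075 CPM at a margin of 6 or more. Cells at 1 UMI thus lay nearer to B-2 cells in these genes, and their depth was low, with medians of 2105 and 2490 UMIs.

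**Figure D1:**
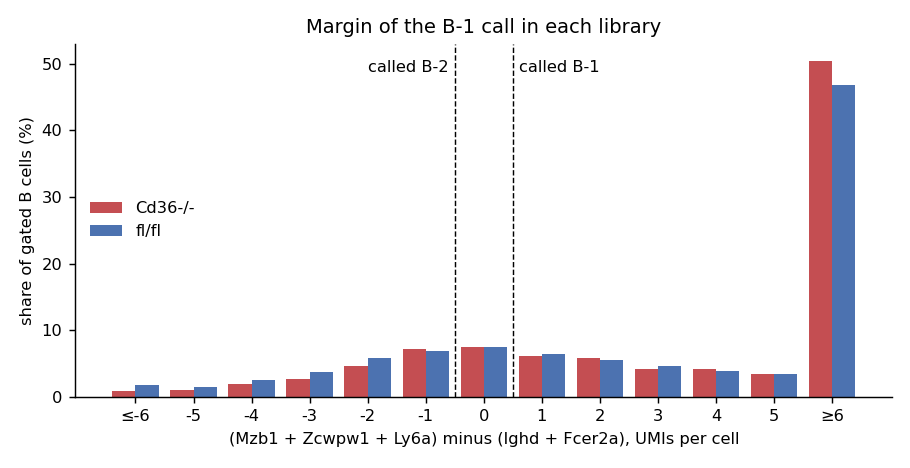
Share of gated B cells (percent, vertical axis) at each difference between the UMIs of Mzb1, Zcwpw1 and Ly6a and those of Ighd and Fcer2a (horizontal axis), in Cd36-/- (red) and fl/fl (blue). The last bar, a margin of 6 or more, holds 50.4% and 46.8% of the cells, and ties and cells at a margin of 1 fill the range between the classes.

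At equal depth the same cells could be split by S100a6, which the rule did not use. Of B-1 cells with at least 2000 UMIs, thinned to that number, 1030 of 1933 (53.3%) in Cd36-/- and 1674 of 2843 (58.9%) in fl/fl kept 5 or more S100a6 UMIs, and 612 (31.7%) and 838 (29.5%) kept 0 to 2. Among B-2 cells, 229 of 253 (90.5%) and 579 of 670 (86.4%) kept 0 to 2. The B-1 cells with 0 to 2 had Ccr7 at 188 and 210 CPM, against 49.7 and 56.2 CPM in those with 5 or more. Vpreb3, a B-2 identity gene, stood at 106 and 162 CPM against 29.4 and 30.9 CPM. Of the B-1 identity genes outside the rule, Zbtb32 stood at 67.0 and 42.3 CPM against 124 and 112 CPM. Bhlhe41 stood at 88.6 and 53.4 CPM against 109 and 85.6 CPM. B-2 cells with 0 to 2 had Zbtb32 at 5.52 and 6.83 CPM and Bhlhe41 at 22.1 and 9.45 CPM. Before thinning, the B-1 cells with 0 to 2 had median depths of 3665.5 and 3559.5 UMIs, against 6073 and 7654.5 in those with 5 or more. Of the rule genes, which chose the cells, Mzb1 stood at 857 and 750 CPM and Ighd at 309 and 371 CPM in the B-1 cells with 0 to 2. In those with 5 or more, Mzb1 stood at 935 and 782 CPM and Ighd at 116 and 140 CPM. About 3 in 10 of the cells that the rule calls B-1 thus had S100a6 in the range of most B-2 cells. Their Zbtb32 and Bhlhe41 levels stayed above those of B-2 cells with 0 to 2. The rule does not draw a clean line between the classes.

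Markers of other cells were low but not absent. The 15 macrophage markers summed to 5524 CPM in Cd36-/- and 4827 CPM in fl/fl B-1 cells, against 65027 and 69187 CPM in macrophages and 7235 and 5567 CPM in B-2 cells. Of the 12 that could be compared, 11 were higher in Cd36-/- B-1 cells, the exception being Lyz2, the gene that drives LysM-Cre, at 1424 and 1979 CPM (log2 ratio -0.47, -0.50 to -0.45). Lyz2 was lower in Cd36-/- macrophages too, at -0.70. T cell markers summed to 517 and 504 CPM, nearly all of it Cd2 at 486 and 485 CPM, a gene that B cells express as well, and 9 of the 12 stood under 5 CPM in both libraries. Neutrophil markers summed to 25.9 and 35.3 CPM, natural killer cell markers to 43.1 and 30.6 CPM and mesothelial markers to 7.66 and 8.33 CPM. Plasma cell markers summed to 118 and 115 CPM, and Epx, the eosinophil peroxidase gene, was at 0 in both.

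B-1 cells made up 13.2% (12.7 to 13.7) of filtered barcodes in the Cd36-/- library, 2111 of 16000, and 20.4% (19.7 to 21.0) in the fl/fl library, 2999 of 14733. The difference of -7.16 percentage points (-8.00 to -6.32) is larger than counting error, with no replicate behind it. Both B classes were fewer, with B-2 cells at 3.29% and 6.37% and all gated B cells at 17.8% and 28.9%. Among B cells the share of B-1 cells was 74.1% (72.4 to 75.7) in Cd36-/- and 70.5% (69.1 to 71.8) in fl/fl, a difference of 3.61 points (1.47 to 5.74). With barcodes of the macrophage gate left out of the denominator, B-1 cells were 26.8% and 32.5%, a difference of -5.70 points (-7.08 to -4.32). More barcodes fell in the macrophage gate of the Cd36-/- library, 8121 against 5504, and a share cannot tell fewer B-1 cells from more of other cells. The share among B cells moves with depth. With B cells thinned to 2000 UMIs before the call, and those under 2000 UMIs left out, the difference was 10.1 points. Thinning left out 273 of 526 Cd36-/- and 269 of 939 fl/fl B-2 cells, against 178 of 2111 and 156 of 2999 B-1 cells. The part of this unequal loss in the difference was not tested.

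B-1 identity genes outside the rule were high in these cells in both libraries. Of 12 such genes that could be compared, 12 stood higher in B-1 than in B-2 cells in both libraries, a contrast that the rule itself draws and that is given without a test. The share over all genes was not counted, here or for the B lineage and B-2 identity genes. These counts therefore have no background beside them. S100a6 stood at 3573 CPM in Cd36-/- and 4482 CPM in fl/fl B-1 cells, against 405 and 567 CPM in B-2 cells. Plac8 stood at 2624 and 2189 CPM against 921 and 951 CPM, and Lgals1, which encodes the sugar-binding galectin-1, at 486 and 489 CPM against 109 and 118 CPM. Zbtb32, a zinc finger repressor that restrains B cell memory responses, stood at 102 and 94.0 CPM against 5.59 and 7.67 CPM. Bhlhe41, a transcription factor needed for B-1a development and self-renewal, stood at 98.5 and 76.5 CPM against 19.2 and 10.2 CPM. In contrast Itgam, which encodes CD11b, barely separated the classes, at 68.9 and 63.0 CPM in B-1 and 67.1 and 57.7 CPM in B-2 cells, and stood at 940 CPM in fl/fl macrophages. Spn, which encodes CD43, was sparse at 11.3 and 15.7 CPM. At equal depth it gave a UMI in 2.17% and 2.81% of B-1 cells, against 1.62% and 1.37% of macrophages, and is read no further.

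Over all genes, 87 of 4290 (2.03%) stood at least 2-fold higher in B-1 than in B-2 cells in both libraries and 93 (2.17%) at least 2-fold lower, where genes with at least 20 CPM in 1 class of each library were compared. The furthest apart was Ahnak2, a scaffold gene at chr12:112772194-112802657, with log2 ratios of 4.68 in Cd36-/- and 5.30 in fl/fl. Zbtb32 followed at 4.20 and 3.62, and then S100a6 at 3.14 and 2.98 and Jchain, which links IgM pentamers, at 3.92 and 3.18, although 11 cells in each library held most of the Jchain UMIs. Nectin2, an adhesion molecule, stood at 3.56 and 2.96 and Plscr1, a phospholipid scramblase, at 2.72 and 2.97. Ass1, which makes arginine's precursor argininosuccinate, stood at 2.71 and 2.65, and Fgl2, a fibrinogen-like protein, at 3.37 and 2.73. Ass1 shares 41.7% of its 3′ words with Gm5424, so its counts are uncertain.

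Most B-2 identity genes that could be compared stood lower in B-1 cells. Of 12 B-2 identity genes, 10 stood lower in B-1 than in B-2 cells in both libraries, while Klf2, a factor that controls lymphocyte traffic, stood higher. Vpreb3 stood at 52.8 and 63.5 CPM in B-1 and 347 and 339 CPM in B-2 cells. Ccr7 stood at 98.6 and 94.3 against 407 and 374 CPM. Satb1, a chromatin organiser under the limit of 20 CPM in B-1 cells, stood at 16.9 and 16.0 against 89.4 and 86.9 CPM, and Bach2, a repressor of plasma cell fate, at 33.9 and 32.2 against 102 and 105 CPM. Between the libraries the median log2 ratio of the B-2 identity list in B-1 cells was 0.02, with 7 genes higher and 5 lower, and that of the B-1 identity list was 0.12, with 8 higher and 4 lower.

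**Figure D2:**
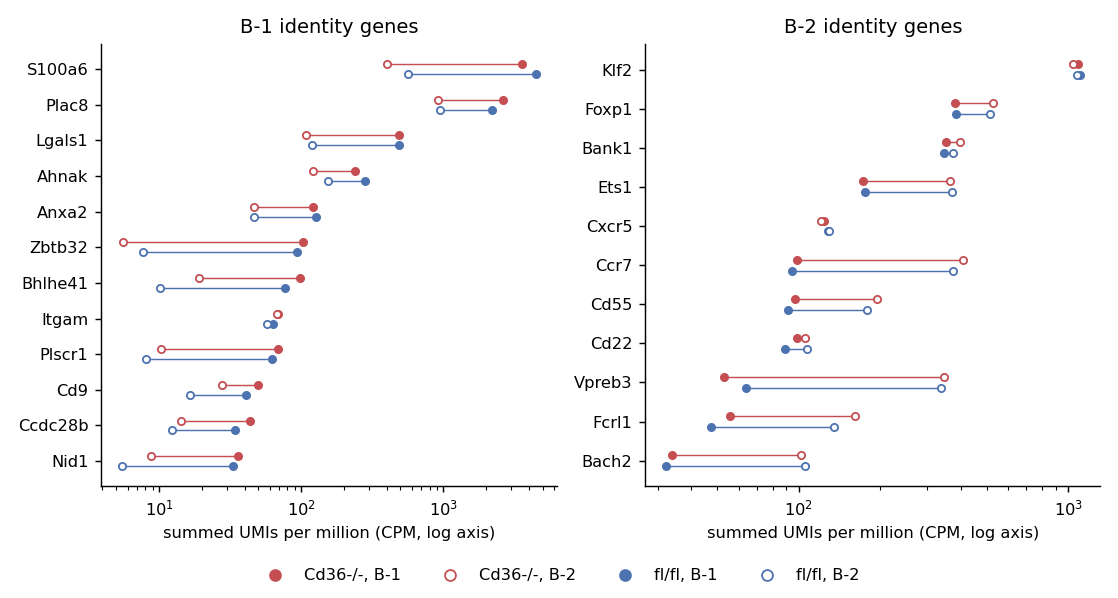
Levels of identity genes in B-1 and B-2 cells of both libraries (CPM, log axis), 1 point per class and library. S100a6, Plac8, Zbtb32 and Bhlhe41 stand higher in B-1 cells and Vpreb3, Ccr7 and Bach2 higher in B-2 cells, in both libraries.

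Zcwpw1 divided the B-1 cells further. The gene lies at chr5:137787798-137822621 on the plus strand (GRCm38). No Zcwpw1 UMI was found in 1620 Cd36-/- and 2217 fl/fl B-1 cells, 1 UMI in 166 and 271, and 2 or more in 325 (15.4%) and 511 (17.0%). The cells with 2 or more held 91.7% and 93.6% of all Zcwpw1 UMIs of the class, and the highest cells had 24 and 49. At 2 or more UMIs there were 0 of 526 (which allows up to 0.570%) and 1 of 939 B-2 cells, 25 of 8121 and 19 of 5504 macrophages and no T cell. After thinning, 14.9% and 15.6% of B-1 cells had a Zcwpw1 UMI, against 1.58% and 1.04% of B-2 cells and 0.825% and 1.18% of macrophages. Zcwpw1 UMIs count towards B-1 in the rule, which itself keeps such cells out of the B-2 class. The contrast with B-2 cells is therefore a description of the call.

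**Figure D3:**
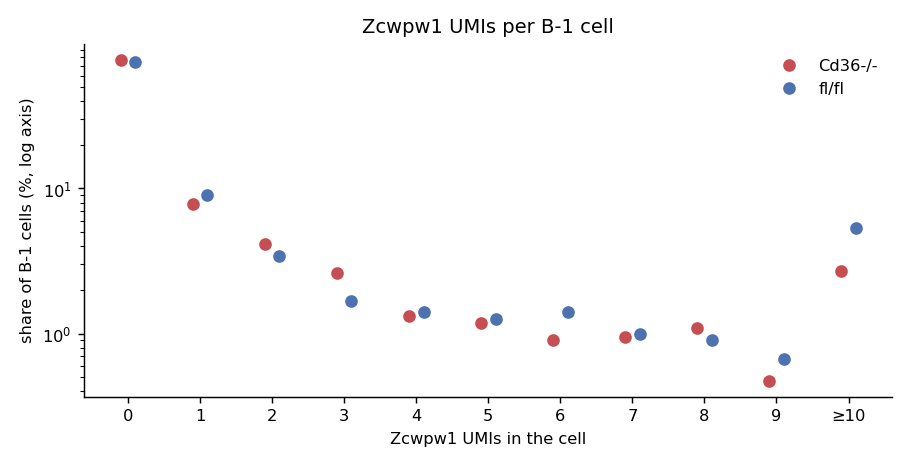
Share of B-1 cells (percent, log axis) by the number of Zcwpw1 UMIs in the cell (horizontal axis, the last position 10 or more), in Cd36-/- (red) and fl/fl (blue). Most cells have 0, and 57 Cd36-/- and 160 fl/fl cells have 10 or more.

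The cells with 2 or more Zcwpw1 UMIs were deeper, with medians of 6920 and 8737 UMIs against 4376 and 5130 in those with 0, and a deeper cell reaches 2 UMIs more easily. Since the split was chosen after the values had been seen, it is given without a test. In both libraries 15 of 4009 genes (0.374%) stood at least 2-fold higher in these cells and 33 (0.823%) at least 2-fold lower. Gnb3, a G protein subunit, had log2 ratios of 2.92 in Cd36-/- and 2.78 in fl/fl, and Lipc, hepatic lipase, 2.17 and 2.96. Ahnak2 stood at 157 and 145 CPM in the cells with 2 or more, against 30.98 and 24.0 CPM in those with 0. The interleukin gene Il18 had log2 ratios of 1.25 and 1.16, and Cd300lf, an inhibitory lipid receptor, 1.71 and 2.16. On the lower side Vpreb3 had -2.20 and -2.24, and Ccr7 -2.18 and -1.86. Pclaf, a gene of DNA replication, was also lower, at -1.96 and -1.46. Ahnak2 and Fgl2 were thus higher both in these cells and in B-1 against B-2 cells, and Vpreb3 and Ccr7, lower here, are the B-2 genes that members near the threshold carry. Zcwpw1 is itself a rule gene, so cells with more of it also lie further from the threshold.

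Variable segments were found in few cells, since tags at the 3′ end rarely reach them. Of 348 segments in the files, 139 had a UMI in Cd36-/- and 158 in fl/fl B-1 cells, and 34.5% (32.5 to 36.6) and 33.6% (31.9 to 35.3) of B-1 cells had any, with 22.2% and 21.5% in B-2 cells, which were shallower, so these shares are not compared. Igkv14-126 was found in 36 and 50 B-1 cells and 1 B-2 cell in all. Of the B-1 cells among them, 19 and 22 had 2 or more Zcwpw1 UMIs. Igkv4-91 was found in 23 and 48 B-1 cells and 3 B-2 cells, and 15 and 37 of the B-1 cells had 2 or more Zcwpw1 UMIs. Ighv11-2 was found in 24 and 20 B-1 cells and no B-2 cell, and Ighv12-3 in 3 and 8 B-1 cells and 1 B-2 cell. The textbook pairs were seen together in 1 and 2 cells for Ighv11-2 with Igkv14-126, and in 0 and 1 cell for Ighv12-3 with Igkv4-91. Other segments were more frequent. Iglv1 was found in 122 and 148 B-1 cells and 26 B-2 cells, and Iglv3 in 122 and 119 B-1 cells and 51 B-2 cells. Igkv2-109 was found in 51 and 94 B-1 cells and 4 B-2 cells, and Igkv19-93 in 52 and 62 B-1 cells and 26 B-2 cells. Cells with 2 or more Zcwpw1 UMIs, 15.4% and 17.0% of all B-1 cells, were found with other segments as well. They were 17 of 51 and 32 of 94 Igkv2-109 cells, 10 of 24 and 9 of 20 Ighv11-2 cells and 12 of 26 and 11 of 21 Igkv6-15 cells. With Igkv19-93 they were 10 of 52 and 11 of 62, with Iglv1 44 of 122 and 36 of 148, and with Iglv3 24 of 122 and 27 of 119. A deeper cell reaches 2 Zcwpw1 UMIs more easily, and the part of depth in these overlaps was not tested. A segment UMI also need not come from the cell's own receptor, since macrophages held light chain UMIs too, as given below. Ighv11-2 shares 58.9% of its 3′ words with Ighv11-1, so the heavy chain count is uncertain.

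Lambda and IgM were called at close shares in the libraries, and kappa was not. A light chain was called where a cell had at least 5 UMIs of Igkc and Iglc1 to Iglc3 and 80% or more came from 1 chain. Lambda was called in 142 of 2111 Cd36-/- B-1 cells (6.73%, 5.70 to 7.88) and 200 of 2998 fl/fl B-1 cells (6.67%, 5.80 to 7.62). Kappa was called in 33.3% of Cd36-/- and 42.5% of fl/fl B-1 cells, a difference of -9.11 points (-11.8 to -6.39), while mixed calls differed the other way. B-2 cells had lambda in 18 of 525 (3.43%) and 19 of 936 (2.03%). In macrophages, which make no light chain, 1.33% and 0.419% were called lambda, and 49.8% and 48.0% were mixed, so light chain UMIs were found also in cells that do not make them. Mixed calls were 59.9% and 50.9% in B-1 cells, which limits this measure. B-1 cells with 2 or more Zcwpw1 UMIs had lambda in 9 of 325 (2.77%) and 20 of 511 (3.91%), and those with 0 in 121 of 1620 (7.47%) and 163 of 2216 (7.36%). An Iglv1 UMI was found in 44 and 36 of the cells with 2 or more, so such a UMI often came without a lambda call. Among cells with at least 5 heavy chain constant UMIs, Ighd left out, Ighm was over 50% of them in 1887 of 1902 (99.2%) and 2758 of 2782 (99.1%), and a switched isotype in 13 (0.683%) and 21 (0.755%).

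Of 8 immunoglobulin constant region genes compared, 6 stood higher in Cd36-/-, with a median log2 ratio of 0.21. Igkc stood at 13122 and 11599 CPM (0.18, 0.17 to 0.19) and Iglc2 at 2588 and 2053 CPM (0.33, 0.31 to 0.35). Ighg3, an IgG subclass of early antibacterial responses, stood at 43.8 and 53.7 CPM (-0.29). Ighg2b stood at 25.1 and 14.1 CPM, but 162 of its 311 Cd36-/- UMIs came from 1 cell.

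Among the cells chosen, few were rich in Jchain. The gate left out barcodes low in Cd79a, Cd79b and Ms4a1, so any antibody-secreting cells outside it are not counted here. Jchain stood at 36.2 and 36.4 CPM in B-1 cells, with 449 UMIs in 75 Cd36-/- cells and 777 UMIs in 119 fl/fl cells. In each library 11 cells had 10 or more Jchain UMIs, and they held 69.9% and 73.2% of them, with highest counts of 65 and 184. The plasma cell programme had 2 of 6 genes higher and 4 lower, with a median log2 ratio of -0.00. Xbp1, the transcription factor of secretory expansion, stood at 45.3 and 47.4 CPM, and Irf4, which drives plasma cell fate, at 48.5 and 46.7 CPM. Of all genes compared between the libraries, 54.6% stood higher in Cd36-/-. The endoplasmic reticulum stress list had 15 of 16 genes lower in Cd36-/-, none by 1.5-fold, with a median of -0.14. In it Hspa5, the main chaperone of that compartment, stood at 114 and 148 CPM (-0.38, -0.47 to -0.28).

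Cd5, which separates the B-1a from the B-1b subset at the protein level, was hardly detected. It gave a UMI in 54 Cd36-/- and 60 fl/fl B-1 cells, and after thinning in 0.776% and 0.528%. T cells, which express Cd5, had a UMI in 13.2% and 13.1% and macrophages in 0.160% and 0.309%. Cells were therefore not divided into B-1a and B-1b. Mki67 or Top2a, both genes of dividing cells, gave a UMI in 117 (5.54%) and 174 (5.80%) B-1 cells and in 3.05% and 2.43% after thinning. S phase genes were lower in 5 of 5 compared (median log2 ratio -0.06), and mitosis genes higher in 4 of 4 (median 0.29), among them Ube2c at 32.8 and 22.0 CPM (0.57, 0.38 to 0.77) and Top2a at 28.3 and 23.0 CPM (0.30, 0.10 to 0.50). In both lists no gene reached 1.5-fold, and over all genes compared 54.6% stood higher.

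Between the libraries B-1 cells differed in few genes. Among 4109 genes that reached 20 CPM in either library, 22 (0.535%) stood at least 1.5-fold higher in Cd36-/- and 27 (0.657%) at least 1.5-fold lower. The median log2 ratio of all of them was 0.02, 54.6% lay above 0 and 98.8% stayed within 1.5-fold. The 54.6% is the background for each count of list genes higher or lower between the libraries. Most of the 22 and 27 had the same sign in the other classes, 20 and 25 of them in B-2 cells, 20 and 24 in macrophages and 20 and 23 in T cells. The share with the same sign over all 4109 genes was not counted, so these counts have no background beside them. Of the 22 higher genes, 7 stood at under 1/5 of their level in macrophages, and of the 27 lower genes none did. Among the B-1 cells with a margin of at least 6 UMIs, where B-2 genes are low, 26 genes were higher and 27 lower, 20 and 24 of them the same genes. There the heat shock median was -0.69 and the Ccnd2 ratio -1.06.

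Heat shock genes, the chaperones that refold cytosolic and mitochondrial proteins, were lower in Cd36-/- B-1 cells as a group. All 10 compared were lower, 6 of them by at least 1.5-fold, against 0.657% of all genes, and their median log2 ratio was -0.68 against 0.02 for all genes. Summed, the list gave 2918 CPM in Cd36-/- and 4175 CPM in fl/fl B-1 cells. The same list had medians of -0.43 in B-2 cells, -0.30 in macrophages and -0.29 in T cells, so it was lower in every class examined. Transcripts from ribosomal RNA repeats, named after their values were seen, were lower too. Gm42418 stood at 133 and 219.5 CPM in B-1 cells (-0.73), with -0.68 in B-2 cells, -0.66 in macrophages and -0.96 in T cells, and AY036118 at 17.9 and 37.4 CPM (-1.06), with -0.96, -1.17 and -1.04. The gene model Gm10036 stood at 61.9 and 121 CPM (-0.97). Their part in the heat shock result was not tested. In B-1 cells the median kept between -0.62 and -0.75 under all alternatives tried, the subtraction of each library's macrophage profile among them.

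Hsph1, a partner of the Hsp70 chaperones at chr5:149614287-149636376 on the minus strand, stood at 16.2 CPM in Cd36-/- and 40.6 CPM in fl/fl B-1 cells (log2 ratio -1.33, -1.55 to -1.10). It gave a UMI in 8.34% and 22.3% of cells, and after thinning in 3.05% and 8.05%, a difference of -5.003 points (-6.29 to -3.70). The Hsp40 co-chaperone Dnajb1 stood at 34.1 and 64.2 CPM (-0.91, -1.07 to -0.75) and Dnaja1 at 131 and 255 CPM (-0.95, -1.03 to -0.87). Hsp90aa1, the inducible Hsp90, stood at 355 and 592 CPM (-0.74), and its constitutive relative Hsp90ab1 at 1008 and 1408 CPM (-0.48). Hspa8, the constitutive Hsp70, stood at 790 and 1015 CPM (-0.36), and Cacybp, a calcyclin-binding co-chaperone, at 72.7 and 123 CPM (-0.76). Of the mitochondrial pair, Hspd1 stood at 67.6 and 104 CPM (-0.62) and Hspe1 at 401 and 498 CPM (-0.31). Stip1, the adaptor between Hsp70 and Hsp90, is outside the list and stood at 28.3 and 49.2 CPM (-0.80). Inducible Hspa1a was under the limit of 20 CPM, at 2.18 and 11.6 CPM. Hsp90aa1, Hspd1 and Dnaja1 share 51.1%, 46.1% and 30.4% of their 3′ words with other annotated genes, so their counts are uncertain.

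The mitochondrial pair is transcribed in opposite directions from 1 shared promoter that holds the heat shock element, the binding motif of the heat shock factors. It is shown because both genes stood lower together. The 120 bases upstream of Hspe1, at chr1:55088028-55088147 on the plus strand (RefSeq, GRCm38.p6), have in capitals 2 overlapping matches of the motif.
Hspe1: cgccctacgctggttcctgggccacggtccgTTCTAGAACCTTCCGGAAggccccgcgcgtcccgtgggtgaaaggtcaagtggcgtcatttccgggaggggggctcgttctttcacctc
The motif searched was GAANNTTCNNGAA, and TTCNNGAANNTTC for the other strand. It occurred in 198 of 32851 promoters of the RefSeq table (0.603%), or in 179 of 27025 genes (0.662%). Of the heat shock list, 10 of 13 genes were in that table and 4 of them had it, namely Hsph1, Hspd1, Hspe1 and Chordc1. Hspd1 and Hspe1 both count through their shared promoter. A match is a description of letters and not a measured site.

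Genes that glucocorticoids induce were lower as well. Of 15 genes on the list 6 could be compared, and all 6 were lower in Cd36-/- B-1 cells, while 54.6% of all genes stood higher. By at least 1.5-fold 3 of them were lower, against 0.657% of all genes. Their median log2 ratio was -0.48, with medians of -0.61 in B-2 cells, -0.77 in macrophages and -0.45 in T cells. Cxcr4, the chemokine receptor that holds B cells in bone marrow and tissue and that lies at chr1:128588199-128592293 on the minus strand, stood at 22.6 and 52.4 CPM (-1.21, -1.41 to -1.02). After thinning it gave a UMI in 5.02% of Cd36-/- and 11.2% of fl/fl B-1 cells, a difference of -6.17 points (-7.70 to -4.61). Ddit4, an inhibitor of the growth kinase mTORC1, stood at 29.8 and 58.4 CPM (-0.97, -1.14 to -0.81), and Pik3ip1, an inhibitor of phosphoinositide 3-kinase, at 40.1 and 60.4 CPM (-0.59). Txnip, a brake on glucose uptake, stood at 140 and 181 CPM (-0.37) and Tsc22d3, the classical glucocorticoid-induced leucine zipper, at 385 and 467 CPM (-0.28). Nfkbia barely differed, at 190.0 and 191 CPM (-0.01, -0.08 to 0.06). Fkbp5, another gene of the list, was under 20 CPM.

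Ccnd2 stood lower in both B cell classes of Cd36-/-. This gene, at chr6:127125162-127152193 on the minus strand, encodes cyclin D2, which B-1 cells use to pass from rest into the cell cycle. It stood at 161 CPM in Cd36-/- and 331 CPM in fl/fl B-1 cells (-1.04, -1.11 to -0.97). Its log2 ratio was -0.74 in B-2 cells, -0.08 in macrophages and -0.07 in T cells. A UMI was found in 43.1% and 55.5% of B-1 cells, and after thinning in 21.5% and 32.5%, a difference of -11.0 points (-13.5 to -8.43). In macrophages the thinned shares were 2.91% and 3.25%. Whether the ratio differs between the classes was not tested.

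Other lower genes belonged to no single list. Wls, which escorts Wnt ligands to the cell surface, stood at 49.1 and 96.6 CPM (-0.98). Cited2, a transcriptional co-regulator, stood at 26.7 and 45.1 CPM (-0.76), whereas in T cells its ratio was 0.23. Pdcd4, an inhibitor of translation, stood at 167 and 261 CPM (-0.65).

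Among the higher genes were several whose 3′ ends are shared with another annotated gene. This held for 51.6% of the 3′ words of Tpm3-rs7 (146 CPM in Cd36-/- and 74.5 CPM in fl/fl B-1 cells), 68.7% of those of Dynlt1c (24.3 and 13.4 CPM), 56.4% of those of Bloc1s1 (55.5 and 36.4 CPM) and 47.8% of those of Gstp1 (126 and 75.7 CPM). These 4 counts are uncertain.

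Apobec3, with 3.98% of its 3′ words shared, encodes a cytidine deaminase that restricts retroviruses, at chr15:79891659-79915906 on the plus strand. Its level was 259 CPM in Cd36-/- and 169 CPM in fl/fl B-1 cells (0.61, 0.54 to 0.68), with log2 ratios of 0.57 in B-2 cells and 0.33 in macrophages. After thinning it gave a UMI in 42.2% and 29.9% of B-1 cells, a difference of 12.2 points (9.43 to 15.03). Mylip, a ligase that degrades the low-density lipoprotein receptor, stood at 41.0 and 23.9 CPM (0.78, 0.60 to 0.96) and at 0.25 in B-2 cells. Cdkn2d, an inhibitor of cyclin D kinases, stood at 57.4 and 36.5 CPM (0.66). Grcc10 and AW112010 were next, at 0.54 and 0.55, and stayed under 1.5-fold. Fos, an immediate early transcription factor, stood at 26.9 and 15.3 CPM (0.82, 0.60 to 1.05), with 1.33 in B-2 cells and 0.01 in macrophages. The immediate early list had 8 of 10 genes higher, with a median of 0.14. Gzma, which encodes granzyme A of killer lymphocytes, stood at 20.6 and 10.4 CPM, but 1 cell gave 25.1% of its Cd36-/- UMIs.

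**Figure D4:**
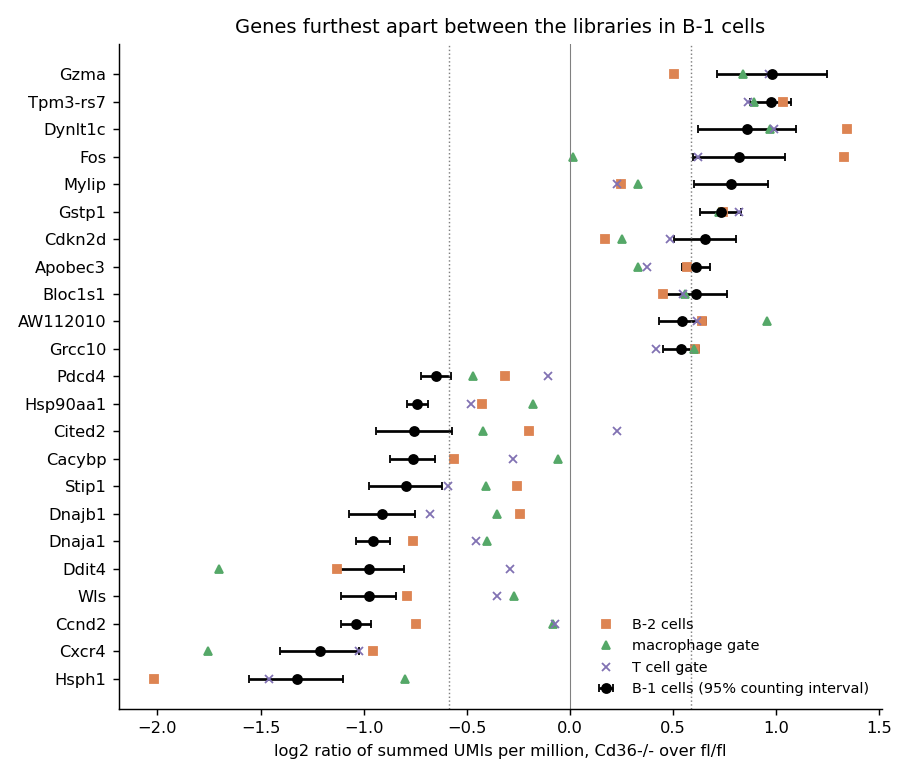
Log2 ratio of Cd36-/- over fl/fl (horizontal axis) for the genes furthest apart in B-1 cells, with 95% intervals of counting error, and the same genes in other classes. Hsph1, Cxcr4 and Ccnd2 are among the lowest, and Ccnd2 lies near 0 in macrophages.

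Macrophage transcripts formed another group. Lyz1 stood at 234 CPM in Cd36-/- and 47.0 CPM in fl/fl B-1 cells (2.31), and at a ratio of 2.26 in macrophages. Apoe stood at 415 and 200 CPM (1.05) and the acute phase gene Saa3 at 2450.03 and 1602 CPM (0.61). These genes belong to the 7 higher ones under 1/5 of their macrophage level, and the macrophage marker sum was likewise higher in Cd36-/- B-1 and B-2 cells, though lower in Cd36-/- macrophages, as given above. Lyz1 shares 38.4% of its 3′ words with Lyz2, so its count is uncertain. The part of macrophage RNA in the higher genes was not tested beyond the subtraction of the macrophage profile, which left 18 higher and 37 lower genes. The Hbb-bs level in Cd36-/- came from 1 cell with 488 of 500 UMIs.

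Genes of antigen receptor signalling had no common direction. Of 17 compared, 10 were higher and 7 lower in Cd36-/-, none by 1.5-fold, with a median log2 ratio of 0.03. Btk, the kinase whose loss removes B-1 cells, stood at 39.4 and 40.6 CPM (-0.04). Malt1, the protease that links the receptor to NF-κB, was furthest apart at 52.8 and 72.3 CPM (-0.45, -0.59 to -0.32). Inhibitory receptors had 7 of 11 higher with a median of 0.14. Siglecg, which restrains B-1 cells, stood at 266 and 256 CPM (0.06), Cd22 at 98.4 and 89.1 CPM (0.14) and Fcrl5 at 23.5 and 30.8 CPM (-0.39, -0.60 to -0.19).

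Receptors for cytokines and survival factors showed no common direction, with 5 of 12 higher and a median of -0.03. Tnfrsf13b, the receptor TACI, stood at 133 and 117 CPM (0.19), and Tnfrsf13c, the BAFF receptor, at 64.3 and 66.2 CPM (-0.04). Il21r stood at 27.8 and 19.4 CPM (0.52, 0.31 to 0.73) and Csf2rb, the chain shared by the interleukin 5 and GM-CSF receptors, at 40.5 and 54.7 CPM (-0.43, -0.59 to -0.28). Il5ra, the other chain of the interleukin 5 receptor that supports B-1 cells, was under 20 CPM, at 16.5 and 13.2 CPM. Of 18 homing and adhesion genes, 10 were higher and 8 lower with a median of 0.03, and only Cxcr4 passed 1.5-fold. Among toll-like receptor genes and adaptors 4 of 6 were higher with a median of 0.20. Of the cytokine genes, Ltb, a lymphotoxin subunit, stood at 509 and 411 CPM (0.31, 0.26 to 0.35).

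Lineage transcription factors lay close to each other in the libraries. Of 20 compared, 11 were higher and 9 lower, none by 1.5-fold, with a median of 0.05. Ebf1 stood at 902 and 959 CPM (-0.09) and Pax5 at 106 and 118 CPM (-0.15), and Bhlhe41 was furthest apart at 0.37 (0.26 to 0.47). MHC class II genes were slightly higher in 11 of 12, against 54.6% of all genes compared, and again none by 1.5-fold. Their median was 0.16, with 0.21 in B-2 cells and 0.07 in macrophages. Cd74, the invariant chain, stood at 15141 and 13456 CPM (0.17) and H2-Oa, a brake on peptide loading in B cells, at 171 and 122 CPM (0.49, 0.41 to 0.57). Ciita, the master regulator of the class, had a ratio near 0 (-0.06, -0.20 to 0.08).

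The remaining lists had medians between -0.02 and 0.18. Type I interferon genes had a median of 0.06 over 5 compared and interferon-gamma genes -0.02 over 9, in which Gbp7, a guanylate-binding protein, stood at 32.7 and 49.9 CPM (-0.61). NF-κB and activation genes had 0.10 over 16, survival genes 0.05 over 10, glycolysis 0.00 over 10, the nuclear respiratory chain -0.01 over 28 and mitochondrially encoded genes -0.01 over 12. Genes of fatty acid uptake, oxidation and storage, the pathway that Cd36 feeds, had 7 of 13 higher and a median of 0.01. In it Plin2, which coats lipid droplets, stood at 19.3 and 25.9 CPM (-0.43, -0.65 to -0.21). Cholesterol genes had a median of 0.18 over 6, with Apoe and Mylip at least 1.5-fold higher.

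**Figure D5:**
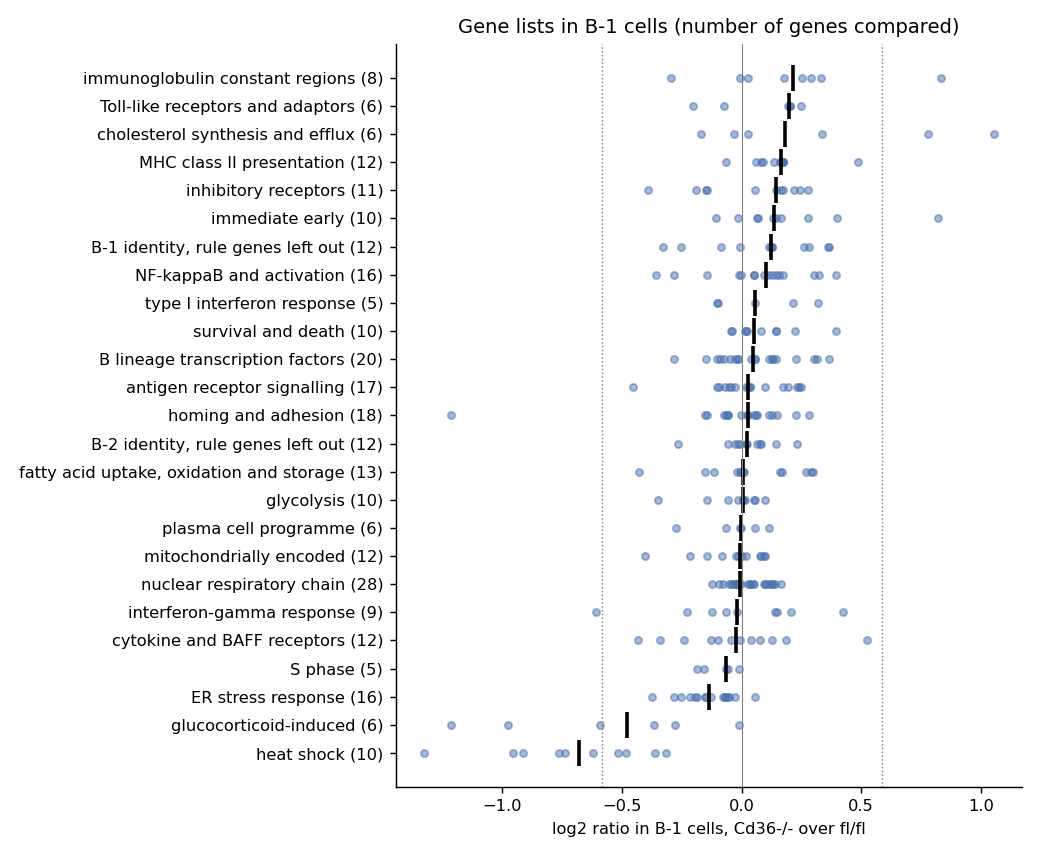
Log2 ratio of Cd36-/- over fl/fl in B-1 cells for each gene compared (points) and the median (bar) of each list, with the number of genes compared in brackets and dotted lines at 1.5-fold. Lists with at least 5 genes compared are drawn, without the lists of cell type markers. The heat shock list lies lowest with a median of -0.68, followed by the glucocorticoid-induced list at -0.48, and the other lists drawn lie between -0.14 and 0.21.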

How the data were processed

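The authors deposited 1 matrix of raw UMI counts per library, made with 10x Genomics 3′ v2 chemistry per the labels' protocols. Per the file headers, the software version was 3.0.0. The submitters' processing notes name mm10 and Cell Ranger. Symbols are those of the files. Members, gene lists and rules were chosen with earlier results of these data known. Counts were summed per class and library in Python 3.11.15 (scipy 1.17.1). Poisson intervals were used for levels, conditional binomial intervals for ratios, Clopper-Pearson intervals for shares and Newcombe combinations for their differences, all exact or built from exact bounds at 95%. Intervals cover counting error only. Genes reaching 20 CPM in 1 library were compared, and 1.5-fold describes size only. Ratios are log2 of Cd36-/- over fl/fl unless 2 classes are named.

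Named genes are Cd36 and Lyz2, the rule genes, the 12 highest and 12 lowest in each contrast ranked by the interval bound nearest to 0, and list members by the same ranking. Left out of the ranking were mitochondrial, ribosomal, immunoglobulin, haemoglobin and sex-linked genes, gene models and genes under 1/5 of their macrophage level. Lyz1, Apoe, Saa3, Hbb-bs and Stip1's place beside the heat shock list were chosen after values were seen, as were the S100a6 and Zcwpw1 splits. A few genes named by this rule are not reported here or drawn. Doublets were called with Scrublet in scanpy 1.11.5, for an alternative only. The ratio steps were tested on simulated data.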

Additional observations from a re-analysis of the deposited data

How the results depend on the processing

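No paired analysis was possible because each group is 1 pooled library, and for the same reason no replicate could be left out. The B-1 share of filtered barcodes in Cd36-/- was 13.9% without doublets and 12.4% at a mitochondrial limit of 5%. The B-1 share of B cells in Cd36-/- was 81.5% with cells thinned before the call and those under 2000 UMIs left out. The difference between the libraries was then 10.1 points. In Cd36-/- and fl/fl that share was 60.4% and 55.7% without Ly6a in the call and 68.0% and 64.0% at a margin of at least 2 UMIs. Lambda at a 90% call was 4.97% and 5.54%. Thinned shares were 0.776% and 0.528% for Cd5 and 3.05% and 2.43% for Mki67 or Top2a. A floor of 5 CPM gave 78 higher and 93 lower genes, and a floor of 50 CPM 10 higher and 17 lower. At that floor the median of the NF-κB list was -0.0030. Alternatives chosen after seeing the data were a margin of at least 6 UMIs and cells of at least 5000 UMIs. They gave B-1 shares of B cells of 50.4% and 46.8%, and of 97.9% and 94.3%. The numbers of genes higher and lower in B-1 than B-2 cells became 133 and 157, and 55 and 58. The 94 other alternative values of the main results moved by less than their limits. The heat shock and glucocorticoid-induced medians ran from -0.62 to -0.75 and -0.43 to -0.53. Of 230 values of 26 named genes, 10 left the main interval and none was counted as reversed. Only genes at least 1.5-fold apart could be counted so, which leaves out Cd36, Lyz2, Grcc10 and AW112010. Values under the CPM floor in both libraries were not counted. The cause of these shifts was not tested.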
